A study of Mus musculus with 40 samples.

Results

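The regions described here are those whose nearest gene is 1 of 8 genes of the pre-B receptor signalling pathway: Cd79a, Cd79b, Lyn, Syk, Btk, Blnk, Pik3ap1 and Plcg2. A region entered when the smallest absolute distance in the deposited gene annotation, within 200 kb, pointed to one of these genes, and 341 of 863771 regions over 7 ChIP targets did so. Plcg2 held 109 of them, Pik3ap1 77, Syk 64, Blnk 39, Cd79b 26, Btk 12, and Cd79a and Lyn 7 each. Nearness does not show that a region acts on the gene, and a region can lie inside another gene: both SMC3 sites assigned to Cd79b lie in the body of Scn4a, a sodium channel gene.

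The study mapped SMC3 and RAD21 of the cohesin ring, NIPBL, WAPL, the insulator protein CTCF and the histone marks H3K27ac and H3K4me1 by ChIP-seq in primary small pre-B cells, flow-sorted from mouse bone marrow. The 3 groups were cells of wild-type mice (WT), cells of Brwd1-/- mice (KO), and WT cells cultured for 2 hours with 126 nM Oligomycin A, an inhibitor of the mitochondrial ATP synthase (ATPneg). Each target and group had 2 ChIP libraries, described as biological replicates, which gives 36 of the 40 samples, and the other 4 were inputs; ATPneg exists for SMC3, RAD21, NIPBL and WAPL. The labels give no strain, age or exon of the Brwd1 deletion, and do not say whether animals were pooled or which cells carry the deletion.

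The pre-B receptor pairs an immunoglobulin heavy chain with the surrogate light chain, and it signals through the CD79A and CD79B chains. LYN, a Src family kinase, phosphorylates these chains, SYK binds them, and SYK then phosphorylates the adaptor BLNK, which brings BTK to phospholipase C gamma 2 (PLCG2). PIK3AP1 (BCAP) links the receptor to phosphoinositide 3-kinase. The BLNK branch of the pathway is known to slow division and to open the Ig kappa locus to recombination in pre-B cells. H3K4me1 marks enhancers and the flanks of promoters, H3K27ac marks active ones, and cohesin is known to halt at CTCF sites when it extrudes loops.

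The promoters of Cd79a, Blnk and Syk are shown as examples, since H3K4me1 differed between KO and WT at the promoters of all 8 genes. The Syk mark regions described below were not tied to either of the 2 Syk starts shown. Each line gives the 250 bases before a RefSeq start (GRCm38.p6, 5′ to 3′ on the gene's strand), and capitals mark matches, on either strand, to an E-box (CAGGTG), an Ets site (AGGAAGT) or the octamer (ATGCAAAT). None of the matches overlap each other.
Cd79a: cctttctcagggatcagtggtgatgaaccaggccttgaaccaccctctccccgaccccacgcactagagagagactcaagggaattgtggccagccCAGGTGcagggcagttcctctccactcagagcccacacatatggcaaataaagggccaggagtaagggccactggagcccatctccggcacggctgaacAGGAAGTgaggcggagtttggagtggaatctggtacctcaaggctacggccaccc
Blnk: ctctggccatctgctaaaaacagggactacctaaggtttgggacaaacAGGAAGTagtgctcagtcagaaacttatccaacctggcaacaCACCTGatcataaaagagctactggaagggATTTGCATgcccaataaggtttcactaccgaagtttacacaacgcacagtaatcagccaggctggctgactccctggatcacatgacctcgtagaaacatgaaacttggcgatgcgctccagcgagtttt
Syk, start 1: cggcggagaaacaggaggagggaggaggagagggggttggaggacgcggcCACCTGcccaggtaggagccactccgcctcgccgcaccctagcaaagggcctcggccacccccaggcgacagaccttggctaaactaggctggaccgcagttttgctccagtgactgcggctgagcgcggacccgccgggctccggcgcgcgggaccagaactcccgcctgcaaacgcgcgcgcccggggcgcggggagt
Syk, start 2: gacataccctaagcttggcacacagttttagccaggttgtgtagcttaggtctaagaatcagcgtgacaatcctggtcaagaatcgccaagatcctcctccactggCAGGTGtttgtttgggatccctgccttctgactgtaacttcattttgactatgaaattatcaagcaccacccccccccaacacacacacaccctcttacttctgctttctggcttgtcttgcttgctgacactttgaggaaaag
In GRCm38.p6 these windows are chr7:24897247-24897496 (plus strand), chr19:40994222-40994471 (minus strand), chr13:52583187-52583436 and chr13:52596632-52596881 (both plus strand). Syk start 1 is rich in CpG, with 27 CpG and 71.6% GC, while start 2 has 2 CpG and 47.6% GC. The table holds 7 starts of 6 of the genes; Cd79b and Lyn were not matched. An E-box match was found at 6 of these 7 starts and at 17.2% of all 32851 promoter windows of the same length. Blnk alone among the 7 held the octamer (1.6% of all windows), and Cd79a and Blnk held the Ets site (7.69% of all windows). These matches are letters in a window, not measured binding. The counts below use mm9, so the 2 sets of coordinates cannot be laid over each other.

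Reads in regions ran from 3784506 to 30496715 per library. For SMC3, RAD21 and NIPBL the KO libraries held 3784506 to 7415143 reads and the WT libraries 15416715 to 24962590, so genotype and this depth difference cannot be told apart for these targets. H3K4me1 differed in the same direction, with 16048349 to 16794584 reads in KO and 21829239 to 26637928 in WT, as did H3K27ac, with 21859316 to 23013317 and 27183753 to 28358008. WAPL differed in the other direction, with 28011360 to 30496715 reads in KO and 21488840 to 21978527 in WT, and 1 CTCF library, WT 2, was deeper than the others (17055094 against 3880112 to 5033230). Depth and genotype cannot be told apart for these marks and WAPL either. Pearson correlations of log CPM between replicates lay between 0.908 and 0.979, except for the RAD21 KO pair (0.791) and the CTCF WT pair (0.618). The KO libraries of both histone marks are called knockout by title and description and WT by their genotype label, and titles were followed. Peak names inside the H3K27ac KO, H3K4me1 WT, 1 NIPBL KO and 1 NIPBL WT list belong to other samples, although every KO and WT peak lies within the merged regions of its own target. In the libraries labelled H3K27ac, 7 of 10 B-lineage marker genes had a region within 1000 bp of their start, against 2 of 6 T cell, 2 of 6 myeloid, 1 of 5 erythroid and 0 of 3 NK genes. The B-lineage regions summed to 21.1 and 18.5 CPM in KO and 24.7 and 25.6 CPM in WT, the T cell regions to 0.954 to 1.38 CPM, the myeloid regions to 1.79 to 2.38 CPM and the erythroid region to 3.51 to 5.15 CPM over the 4 libraries. Per kb the B-lineage regions were not the densest, at 2.86 to 3.96 CPM per kb against 3.77 to 5.64 for the T cell and myeloid regions, which are few and short, and 19.4 to 28.4 for the 1 erythroid region. Vpreb1, Vpreb3 and Igll1, of which Vpreb1 and Igll1 encode the surrogate light chain and are known to be shut off as pre-B cells become small, had no such H3K27ac region. The libraries labelled H3K4me1 had a region at 10 of 10 B-lineage promoters, with 183.5 and 176.6 CPM in KO and 351.8 and 358.4 CPM in WT, and at 2 T cell, 1 myeloid, 1 erythroid and 0 NK genes, summing to 1.88 to 2.50, 1.27 to 2.09, 5.04 to 6.34 and 0 CPM. Each value below is an average over a sorted population, in which the share of cells with a mark and its level per cell cannot be told apart.

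SMC3, one of the long arms of cohesin, was higher in KO at most of its regions near the pathway genes. Of 19 regions, all tested, 15 were higher and 0 lower in KO (edgeR quasi-likelihood test, adjusted p under 0.05 over all SMC3 regions), where 22.1% of all 77109 tested regions were higher and 18.1% lower. Both KO libraries lay above both WT libraries at 17 of the 19 and below at 0, against 32.0% and 39.6% of all tested regions. The median log2 fold change was 3.31, against −0.22 over all tested regions. A peak in at least 1 library was present at 15 of the 19 in KO and at 4 in WT. Over all SMC3 regions these shares were 18.4% and 83.4%. Regions were built from KO and WT peaks, so most of the 19 entered the set through KO. The shares over all regions are therefore not a like background. The regions at WT CTCF peaks, meaning peaks found in both WT libraries, account for 12 of the 15. All 12 such regions were higher, and 96.4% of all 12216 tested SMC3 regions at WT CTCF peaks were too (0.27% were lower), so the pathway regions followed the same pattern as CTCF sites at large. Of the 7 regions elsewhere, 3 were higher and 0 lower, and their median log2 fold change was 1.40. Over all tested SMC3 regions away from these peaks, 8.12% were higher and 21.4% lower, and the median was −0.44.
Near the receptor chain gene Cd79b, SMC3 stood at 20.5 and 21.3 CPM (reads scaled to a common total of reads in regions, with TMM) in KO and at 1.83 and 0.750 CPM in WT (chr11:106191026-106191559, 15.2 kb upstream). The KO libraries lay far above the WT libraries and close to each other, which gave a log2 difference of 4.01 ± 0.41 (standard error; adjusted p = 0.000926). It was 4.70 without WT 1, 3.53 without WT 2 and 7.25 ± 1.18 on input-subtracted counts, under which the median of the tested SMC3 regions near the 8 genes was 5.32 and the 6 regions named by rule lay at 4.33 to 7.85. A second site 11.1 kb upstream of Cd79b (chr11:106186949-106187650) held 27.2 and 27.6 CPM in KO and 2.94 and 1.38 CPM in WT, a log2 fold change of 3.66 ± 0.37. Cd79a, the partner chain gene, had no SMC3 region.
Lyn, the kinase gene at the head of the pathway, was the only member with an SMC3 region within 2 kb of its start. This region (chr4:3605572-3605821, 0.303 kb past the start) held 10.01 and 10.2 CPM in KO and 1.63 and 1.5 CPM in WT, a log2 fold change of 2.68 ± 0.24 (adjusted p = 0.000707), and it had no WT CTCF peak. Syk, the kinase that reads the phosphorylated chains, had 3 regions, all higher. The one 40.5 kb into the gene held 20.5 and 11.5 CPM in KO and 1.70 and 0.813 CPM in WT (log2 3.66 ± 0.47, adjusted p = 0.00182). It is the Syk region where the KO replicates differed most, and it was still clear of both WT libraries. Btk had no SMC3 region.
Within the adaptor gene Blnk, 31.2 kb past the start, a CTCF-bound region (chr19:41037383-41037775) held 24.3 and 23.8 CPM of SMC3 in KO and 4.37 and 2.44 CPM in WT. The log2 fold change was 2.82 ± 0.31 (adjusted p = 0.00114). The other Blnk region overlapped between groups, with 1.91 and 2.94 CPM in KO against 6.27 and 0.813 CPM in WT. Upstream of Pik3ap1 by 67.9 kb (chr19:41527465-41527792), SMC3 was at 10.5 and 10.4 CPM in KO and at 0.392 and 0.125 CPM in WT. These WT values rest on 6 and 2 reads, so the log2 fold change of 5.28 ± 0.46 (adjusted p = 0.000654) is imprecise.
Plcg2, the lipase gene at the end of this chain, had 9 SMC3 regions, of which 6 were higher. The 5 of them at CTCF peaks were spread from 112 kb upstream to 71.2 kb into the gene, with log2 fold changes of 2.88 to 3.51. The remaining 3 were not called, and 1 of these, 20.0 kb upstream, was at 10.5 and 10.4 CPM in KO and at 6.14 and 8.25 CPM in WT.

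**Figure D1:**
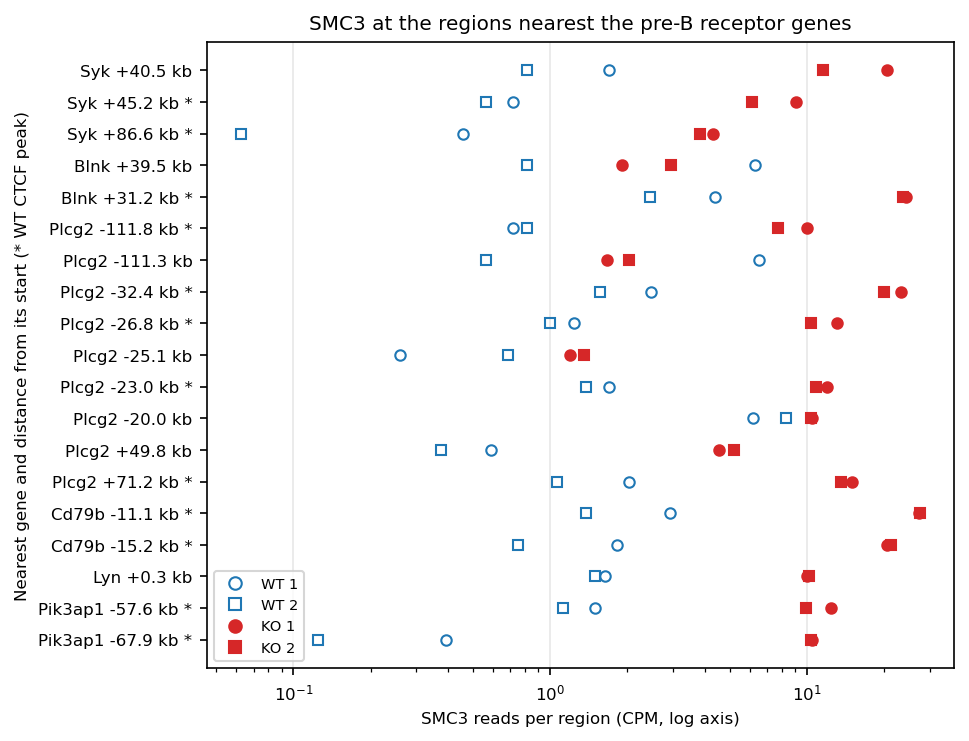
SMC3 reads per region (CPM, log axis) in each of the 4 libraries for the 19 regions, named by nearest gene and distance from its start in kb; filled red marks are KO and open blue marks WT, circles replicate 1 and squares replicate 2, and an asterisk marks a WT CTCF peak. Both KO libraries lie above both WT libraries in all regions with an asterisk.

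The KO and WT peak lists of SMC3 come from the libraries counted above, and the regions were built from these peaks. The KO and WT lists are thus no second line of support for the higher calls. A peak in both replicates was found at 1 of the 19 SMC3 regions in WT, at 12 in KO and at 16 in ATPneg, while over all SMC3 regions the shares were 31.9%, 11.2% and 20.2%. At the 12 regions with a WT CTCF peak, WT had 0, KO 11 and ATPneg 12. Over all 12217 SMC3 regions at WT CTCF peaks the shares were 4.58%, 68.7% and 96.0%, so here too the pathway regions followed CTCF sites in general. The regions of Syk, Cd79b and Pik3ap1 had an ATPneg peak in both replicates in every case, and so did the Lyn promoter region. KO and ATPneg are both set against the same WT lists, the lists differ in length, and the ATPneg libraries come without counts, so no test of change was made. The labels do not say whether the WT cells were also cultured, so oligomycin and 2 hours of culture cannot be told apart. Merged regions were built from KO and WT peaks alone, and 44.9% and 47.4% of SMC3 ATPneg peaks fall in them; peaks found only in ATPneg are not counted here.

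RAD21, the cohesin subunit that closes the ring, was called at 1 of 15 tested regions, higher in KO, and at none lower, where 2.3% of all 84996 tested regions were higher and 21.1% lower. Both KO libraries were above both WT libraries at 5 of 15 and below at 0, against 29.9% and 48.3% of all tested regions. One further region, within Plcg2, did not pass the filter on low counts. The median log2 fold change was 1.43, against −0.39 over all tested regions. The KO replicates disagreed. At the 7 RAD21 regions with a WT CTCF peak, KO 1 held 6.17 to 14.5 CPM and KO 2 held 0.278 to 1.25 CPM, with WT 1 at 0.918 to 2.17 CPM and WT 2 at 0.982 to 2.50 CPM. KO 1 was thus above both WT libraries and KO 2 below both at each of these 7 regions, of which 0 were called; of all 7812 tested RAD21 regions at WT CTCF peaks, 1.59% were higher and 0.256% lower. Within Blnk (chr19:41037344-41037772) RAD21 was at 13.3 and 0.834 CPM in KO and at 2.17 and 2.01 CPM in WT. Upstream of Cd79b (chr11:106186993-106187555) it was at 14.5 and 1.25 CPM in KO and at 2.05 and 2.50 CPM in WT. Without KO 2 the median log2 fold change of the 16 regions was 2.36, against −0.35 over all tested regions. Without KO 1 it was 0.22, against −0.26. Without WT 1 or without WT 2, 0 regions were called, members or others.
The called RAD21 region lies 71.9 kb past the Syk start (chr13:52750734-52751085), with 33.3 and 30.5 CPM in KO and 13.6 and 16.7 CPM in WT (log2 1.07 ± 0.24, adjusted p = 0.0457). The call was lost with the replicate block (adjusted p = 0.108), background scaling (0.0562), no filter (0.14), input-subtracted counts (0.278, log2 3.61 ± 2.12) and without WT 1 (0.407) or WT 2 (0.36). The input is very dense at this site, at 839.5 reads per kb, where the median of the 14 RAD21 regions away from this Syk site was 53.8 and the highest 3140. Its part in the result was not tested. NIPBL and WAPL were called higher at this site too, while CTCF was not called. CTCF there (chr13:52750748-52751053) was at 40.6 and 36.3 CPM in KO and at 46.2 and 52.3 CPM in WT. Its log2 fold change was −0.36 ± 0.62 (edgeR adjusted p = 0.639).
A RAD21 peak in both replicates was present at 0 of the 16 regions in WT, at 0 in KO and at 7 in ATPneg, against 33.3%, 7.82% and 8.02% of all RAD21 regions. All 16 had a peak in 1 KO library and 2 had one in a WT library, so most entered the set through KO. Over all RAD21 regions these shares were 53.1% and 57.9%, so all regions are not a like background. Of the 7 with a WT CTCF peak, 6 had RAD21 peaks in both ATPneg libraries, as had 60.8% of all RAD21 regions at WT CTCF peaks.

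CTCF did not differ by test at any of its 31 tested regions: edgeR called 0 and DESeq2 0, with 4 at an unadjusted p under 0.05. Over all 75717 tested regions, 0.00792% were higher and 0.0317% lower. Both KO libraries were above both WT libraries at 19 of 31 and below at 2, against 33.4% and 40.8% of all tested regions, and the median log2 fold change was 0.86 against −0.37. Of the 32 CTCF regions, 15 had a peak in both WT libraries and 20 in both KO libraries, near Syk, Blnk, Plcg2, Cd79b and Pik3ap1. Over all CTCF regions the shares were 20.2% and 29.8%. A peak in at least 1 library was present at 28 of the 32 in WT and 23 in KO, against 88.8% and 36.5% of all. All CTCF regions are thus not a like background. The WT replicates differed: at the 15 regions with a WT CTCF peak the medians were 24.2 and 30.6 CPM in the KO libraries, 17.8 CPM in WT 1 and 5.88 CPM in WT 2, and WT 1 was above WT 2 at 15 of 15. Within Blnk (chr19:41037305-41037876), CTCF was at 41.2 and 38.3 CPM in KO, 37.4 CPM in WT 1 and 10.7 CPM in WT 2. At the Pik3ap1 promoter (chr19:41458640-41459461) it was at 27.1 and 30.8 CPM in KO, 26.6 CPM in WT 1 and 9.84 CPM in WT 2. In both cases WT 1 lay with the KO libraries and WT 2 stood apart. Without WT 1, 24 regions were called higher and 6 lower of 32, and without WT 2, 7 higher and 0 lower of 31. The same fits called 38.3% of all regions higher and 45.8% lower without WT 1, and 9.58% higher and 12.8% lower without WT 2, so the number of calls moved over the whole table. The smallest p was that of a region 33.3 kb upstream of Plcg2 (chr8:119988476-119988870), with 12.5 and 12.7 CPM in KO and 3.66 and 2.30 CPM in WT (log2 2.12 ± 0.75, adjusted p = 0.311).
CTCF and SMC3 can be set side by side where their regions overlap. Near Cd79b (chr11:106186996-106187672) CTCF stood at 28.5 and 37.3 CPM in KO and at 34.2 and 8.37 CPM in WT, groups that overlap, while SMC3 there did not overlap. Upstream of Pik3ap1 (chr19:41516954-41517695) CTCF was at 31.0 and 39.6 CPM in KO and at 23.8 and 8.37 CPM in WT, with SMC3 at 12.4 and 9.95 CPM in KO against 1.501 and 1.13 CPM in WT (log2 3.08 ± 0.29, adjusted p = 0.000747). The plot of RAD21 and CTCF by library shows which libraries stand apart.

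**Figure D2:**
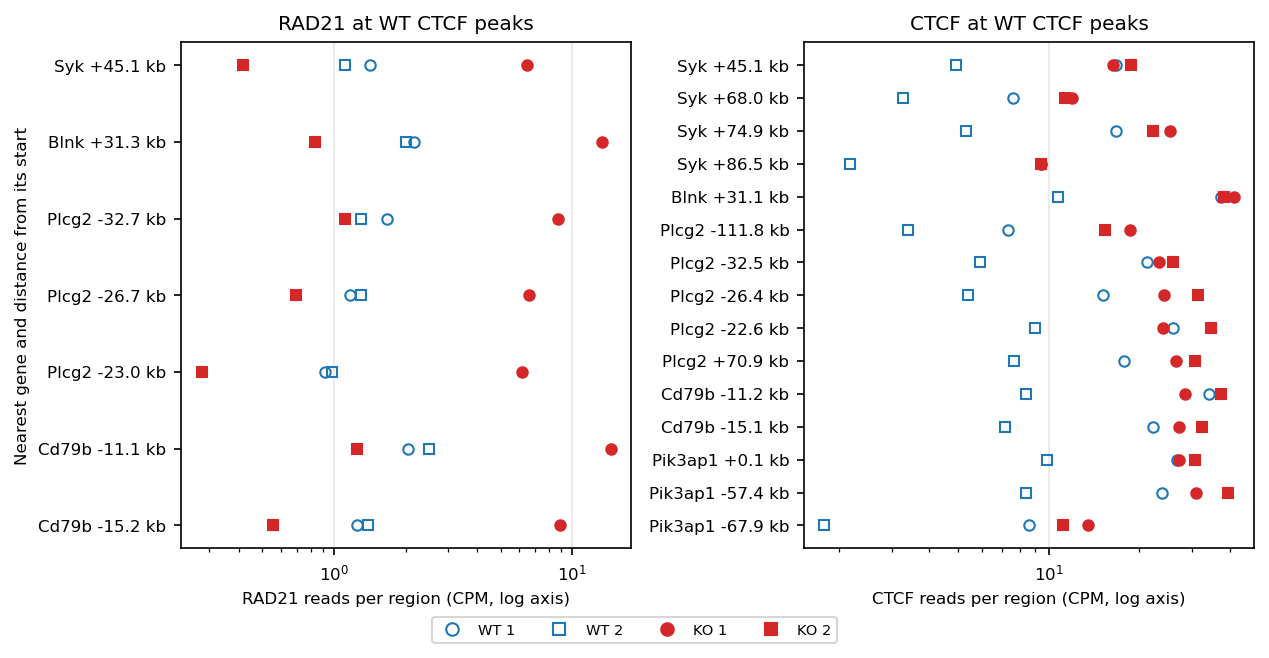
RAD21 (left, 7 regions) and CTCF (right, 15 regions) at WT CTCF peaks, in CPM on a log axis, one mark per library; filled red marks are KO and open blue marks WT, circles replicate 1 and squares replicate 2. RAD21 KO 1 lies at 6.17 to 14.5 CPM and KO 2 at or below 1.25 CPM, and CTCF WT 2 lies below the 3 other libraries in all 15 regions.

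NIPBL, which loads cohesin, was called at 1 of 9 regions, higher in KO, with 0.995% of all 61586 tested regions higher and 0.63% lower. KO was above WT without overlap at 6 of 9 and below at 0, against 26.3% and 28.9% of all tested regions, and the median log2 fold change was 0.51 against 0.00. The call was the dense-input Syk site (chr13:52750798-52751050), at 57.2 and 59.6 CPM in KO and 42.1 and 36.8 CPM in WT (log2 0.57 ± 0.12, adjusted p = 0.0466, input 1154 reads per kb). It was lost when any 1 of the 4 libraries was left out. Upstream of Pik3ap1 by 7.44 kb (chr19:41466999-41467284, chosen after its values were seen) NIPBL was at 7.14 and 8.31 CPM in KO and at 4.41 and 3.40 CPM in WT, without passing the test (adjusted p = 0.0741). NIPBL peaks in both replicates were found at 2 of 9 regions in WT, 0 in KO and 1 in ATPneg, against 33.1%, 1.81% and 12.9% of all NIPBL regions. A peak in at least 1 library was present at all 9 in WT and at 0 in KO, against 99.4% and 5.26% of all. The Syk site, called higher in KO on counts, had a peak in WT 2 and in no KO library.
WAPL, which releases cohesin, was higher in KO at 7 of 20 regions and lower at 0, where 13.1% of all 126089 tested regions were higher and 27.6% lower. KO was above WT without overlap at 11 of 20 and below at 1, against 36.7% and 36.1% of all tested regions, and the median log2 fold change was 0.49 against 0.07. Upstream of Pik3ap1 by 7.43 kb (chr19:41466991-41467242) it was at 4.33 and 3.42 CPM in KO and 1.55 and 1.53 CPM in WT (log2 1.33 ± 0.24, adjusted p = 0.0117). Upstream of Plcg2 by 35.4 kb (chr8:119986675-119986816) it was at 9.53 and 8.14 CPM in KO and 3.44 and 3.71 CPM in WT (log2 1.31 ± 0.19, adjusted p = 0.00705). KO and WT did not overlap at either site. The other 5 calls lay near Syk, where there were 2, within Blnk, within Plcg2 and within Pik3ap1, with log2 fold changes of 0.73 to 1.15. The input at the 7 called regions ran from 131.6 to 932.7 reads per kb, a density whose part in the calls was not tested. No WAPL region was called without KO 1 or without KO 2, and 10 were called higher and 2 lower without WT 1, as without WT 2. Of all tested regions, 0.0636% were higher without KO 1 and 0.164% without KO 2, while 21.2% were higher and 30.1% lower without WT 1, and 20.3% and 29.3% without WT 2. No WAPL region of these genes overlapped a WT CTCF peak or an ATPneg peak. WAPL peaks in both replicates were found at 2 of 20 regions in WT and 9 in KO, against 41.6% and 35.4% of all WAPL regions. In ATPneg 1.64% of all had one. A peak in at least 1 library was present at 8 of the 20 in WT and 18 in KO, against 73.9% and 59.0% of all. Many of the 20 thus entered the set through KO, and all regions are not a like background.

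H3K4me1 was lower in KO at the promoters of all 8 genes and higher at many regions inside or beyond Plcg2 and Pik3ap1. Of 130 regions, all tested, 41 were higher and 18 lower, where 6.44% of all 179582 tested regions were higher and 9.98% lower. KO was above WT without overlap at 63 of 130 and below at 27, against 26.2% and 26.9% of all tested regions, and the median log2 fold change was 0.25 against 0.00. A peak in at least 1 library was present at 115 of the 130 in KO and 86 in WT, against 84.7% and 85.2% of all. A smaller share of the 130 thus had a WT peak, and all regions are not a like background. Within 1000 bp of a start, 0 of 10 were higher and 9 lower. Beyond 1000 bp, 41 of 120 were higher and 9 lower. Of these 41, 27 had a peak only in KO libraries. A peak only in WT libraries was present at 4 of the 9 lower regions near a start and at 3 of the 9 beyond. Regions were built from KO and WT peaks, so these entered the set through the group where they were high. With the same rule, 59.3% of the promoter regions of 8320 genes were lower and 9.0% higher, with a median log2 fold change of −0.90, so a loss at the promoter was the more common outcome over genes in general.
Among the receptor chains, the Cd79a promoter region (chr7:25682520-25685346) held 9.05 and 9.59 CPM in KO and 22.2 and 22.4 CPM in WT, a log2 fold change of −1.26 ± 0.09 (adjusted p = 8.18e-41). The wide Cd79b region (chr11:106167408-106177117) held 48.7 and 48.1 CPM in KO and 84.7 and 87.4 CPM in WT, a log2 fold change of −0.83 ± 0.05. In both genes the replicates of a group were close and the groups far apart.
The kinase genes covered the whole range. Syk (chr13:52677866-52681108) had the deepest loss of the 8, from 37.6 and 38.7 CPM in WT to 4.80 and 5.52 CPM in KO, a log2 fold change of −2.88 ± 0.09 (adjusted p = 6.07e-166, 7.38-fold), and its peak was present in both WT libraries and in no KO library. At Lyn (chr4:3604515-3607743), where SMC3 was higher, H3K4me1 was at 8.20 and 8.83 CPM in KO and 30.5 and 30.6 CPM in WT (log2 −1.84 ± 0.08, adjusted p = 9.84e-89). Btk (chrX:131116700-131117096) had the smallest difference, with 2.55 and 2.91 CPM in KO and 4.14 and 3.77 CPM in WT (log2 −0.53 ± 0.18, adjusted p = 0.0288), and this call was lost in each fit that left out 1 library (adjusted p = 0.0511 to 0.24), under library totals (0.07) and under DESeq2 (0.556).
At the adaptor gene Blnk (chr19:41066500-41074838) H3K4me1 was at 42.6 and 41.1 CPM in KO and 89.7 and 92.7 CPM in WT (log2 −1.13 ± 0.05). At Pik3ap1 (chr19:41455962-41460808) it was at 21.4 and 22.5 CPM in KO and 47.6 and 48.0 CPM in WT (log2 −1.12 ± 0.06). At Plcg2 (chr8:120022034-120023324) it was at 3.65 and 3.25 CPM in KO and 9.46 and 9.997 CPM in WT (log2 −1.499 ± 0.14, adjusted p = 1.51e-24). All 3 thus showed groups without overlap.

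**Figure D3:**
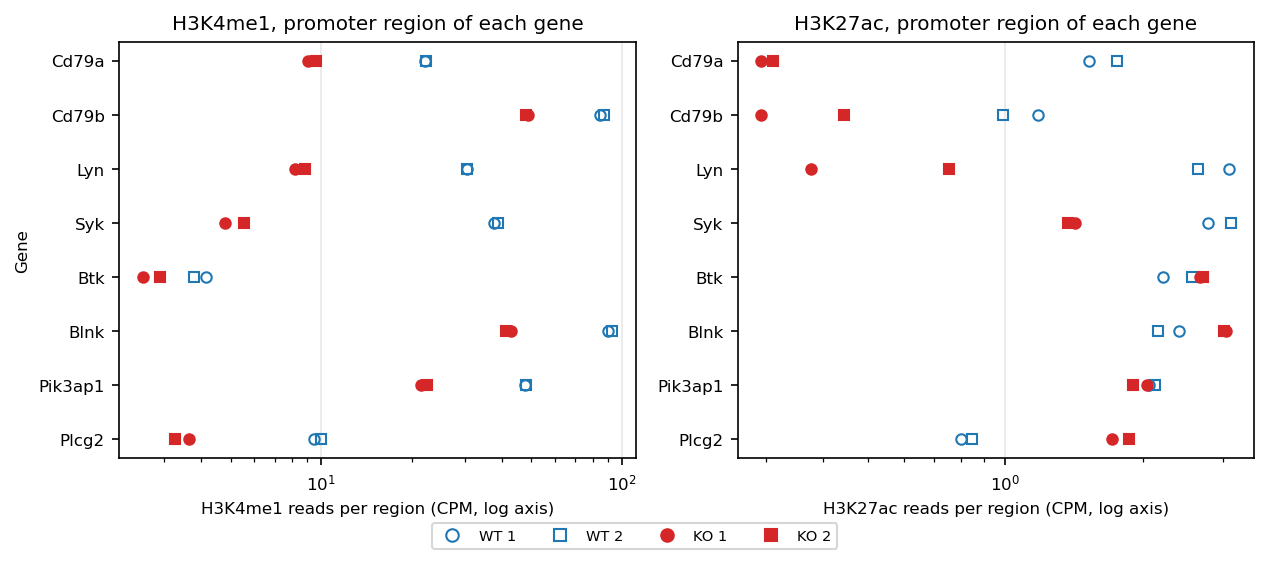
H3K4me1 (left) and H3K27ac (right) at the promoter region of each gene, in CPM on log axes, one mark per library; filled red marks are KO and open blue marks WT, circles replicate 1 and squares replicate 2. H3K4me1 is lower in both KO libraries for all 8 genes. H3K27ac is lower for Cd79a, Cd79b, Lyn and Syk, higher for Plcg2 and not called for Btk, Blnk and Pik3ap1. For Plcg2 the regions of the 2 marks do not overlap.

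Away from the starts the direction differed by gene. Of the Plcg2 regions beyond 1000 bp, 20 of 41 were higher in KO and 0 lower. Of the 20, 12 had a peak only in KO libraries and so entered the set through KO, which adds no support for the gain. The median log2 fold change of the 20 was 0.99, at a median of 3.25 CPM in KO and 1.44 CPM in WT. An intragenic Plcg2 region 56.8 kb past the start (chr8:120079008-120079148) had the highest log2 fold change of the members, 1.74 ± 0.56 (adjusted p = 0.016), from 0.0941 and 0.384 CPM in WT to 0.668 and 1.05 CPM in KO. These WT levels are near the floor, and the call was lost under DESeq2 (adjusted p = 0.265), without KO 2 or without WT 1. A better-filled region 30.1 kb into Plcg2 (chr8:120052336-120054185, chosen after its values were seen) held 13.1 and 14.0 CPM in KO and 8.47 and 8.69 CPM in WT (log2 0.66 ± 0.10, adjusted p = 1.88e-09).
Of the Pik3ap1 regions beyond 1000 bp, 12 of 33 were higher and 2 lower. One 28.6 kb into the gene (chr19:41430760-41431006) held 1.34 and 1.86 CPM in KO and 0.706 and 0.423 CPM in WT (log2 1.53 ± 0.36, adjusted p = 0.000362; 0.0857 under DESeq2 and 0.0561 without KO 2). Syk had 4 higher and 3 lower of 20, and Cd79b 4 higher and 1 lower of 7. Blnk had 0 higher and 2 lower of 11, Lyn 1 higher of 2, Cd79a 1 lower of 2, and Btk none called of 4. The higher regions of all genes beyond 1000 bp had a median length of 471 bp, against 872 bp for the lower ones there and 373.5 bp for all 130 regions, and a median of 3.07 CPM in KO and 1.49 CPM in WT. Under DESeq2, 12 regions were higher and 11 lower in place of 41 and 18, and under library totals 47 and 14.

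**Figure D4:**
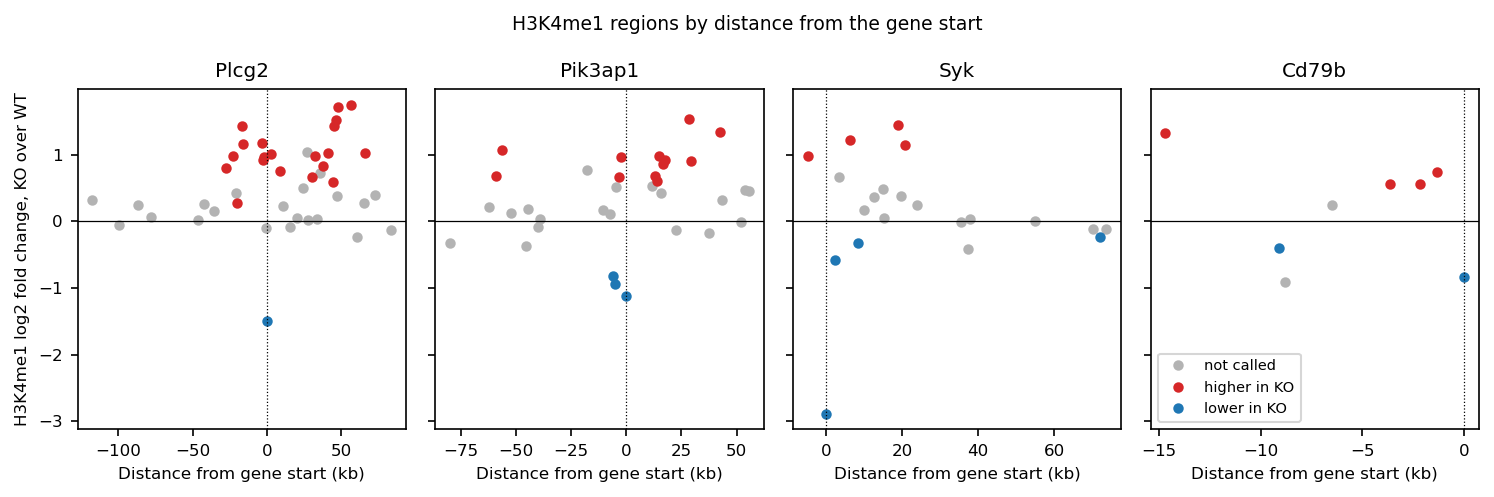
H3K4me1 log2 fold change (KO over WT) of each tested region against its distance from the gene start in kb, for Plcg2, Pik3ap1, Syk and Cd79b; red marks are called higher, blue marks called lower and grey marks not called. The lowest point of Plcg2, Pik3ap1 and Syk sits at the start, at −1.499, −1.12 and −2.88, and the Plcg2 points called higher lie on both sides of it.

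H3K27ac was lower in KO at the promoter regions named by rule for the receptor chains, Lyn and Syk, and higher at that for Plcg2. Of 115 regions 114 were tested, and 19 were higher and 13 lower, where 5.9% of all 235173 tested regions were higher and 10.6% lower. KO was above WT without overlap at 42 of 114 and below at 26, against 27.4% and 26.5% of all tested regions, and the median log2 fold change was 0.09 against 0.02. This balance is not stable, with 13 higher and 14 lower under background scaling, 24 and 10 under library totals, 1 and 5 under DESeq2 and 10 and 12 on input-subtracted counts. Over the promoter regions of 4948 genes, 23.1% were lower and 8.41% higher.
At Cd79a (chr7:25682597-25683239) the libraries labelled H3K27ac held 0.292 and 0.311 CPM in KO and 1.53 and 1.76 CPM in WT (log2 −2.43 ± 0.35, adjusted p = 2.6e-09). At Cd79b (chr11:106175295-106175766) they held 0.292 and 0.444 CPM in KO and 1.18 and 0.991 CPM in WT (log2 −1.56 ± 0.38, adjusted p = 0.000804). The KO values of Cd79a rest on 7 reads in each library, and the levels were low throughout. Both genes had a further region within 1000 bp that was not called, 0.634 kb upstream of Cd79a and 0.67 kb past the Cd79b start.
At Lyn (chr4:3605287-3606716) H3K27ac was at 0.376 and 0.754 CPM in KO and 3.09 and 2.64 CPM in WT (log2 −2.35 ± 0.26, adjusted p = 3.19e-14). At Syk (chr13:52678086-52679157) it was at 1.42 and 1.38 CPM in KO and 2.79 and 3.12 CPM in WT (log2 −1.08 ± 0.21, adjusted p = 9.84e-06). KO and WT did not overlap at these 4 promoters. Peaks there were found in both WT libraries, or in WT 2 alone at Cd79a, and in no KO library. These 4 regions thus entered the set through WT. Btk, Blnk and Pik3ap1 were not called at their promoters, with log2 fold changes of 0.17 ± 0.18, 0.41 ± 0.18 and −0.08 ± 0.20. Blnk, at 3.05 and 3.02 CPM in KO and 2.41 and 2.17 CPM in WT, was called higher under library totals (0.52).
The Plcg2 region lies 0.744 kb before the start (chr8:120021139-120021447). H3K27ac there was at 1.71 and 1.86 CPM in KO and 0.802 and 0.844 CPM in WT (log2 1.11 ± 0.26, adjusted p = 0.000561). This region does not overlap the H3K4me1 promoter region of Plcg2, and the H3K4me1 region 0.72 kb before the start was not called. A region 1558 bp past the Cd79a start (chr7:25684089-25684249) rose from 0.382 and 0.477 CPM in WT to 2.05 and 1.95 CPM in KO (log2 2.20 ± 0.30, adjusted p = 3.07e-10), while the Cd79a promoter region itself fell. A weak region within Plcg2, 45.2 kb past the start (chr8:120067434-120067718), had the highest log2 fold change, 2.41 ± 0.53 (adjusted p = 0.000152), from 0.153 and 0.147 CPM in WT to 1.04 and 0.577 CPM in KO; the call was lost without KO 1. Syk also fell at a region 1173 bp past its start (chr13:52679980-52680490, chosen after its values were seen), from 1.03 and 1.62 CPM in WT to 0.251 and 0.266 CPM in KO (log2 −2.34 ± 0.39). The higher regions 1558 bp past the Cd79a start and 45.2 kb into Plcg2 had a peak in KO 1 alone. Both thus entered the set through KO. Beyond 1000 bp, 6 of the 18 higher H3K27ac regions had a peak only in KO libraries, and 3 of the 9 lower ones only in WT libraries.

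**Figure D5:**
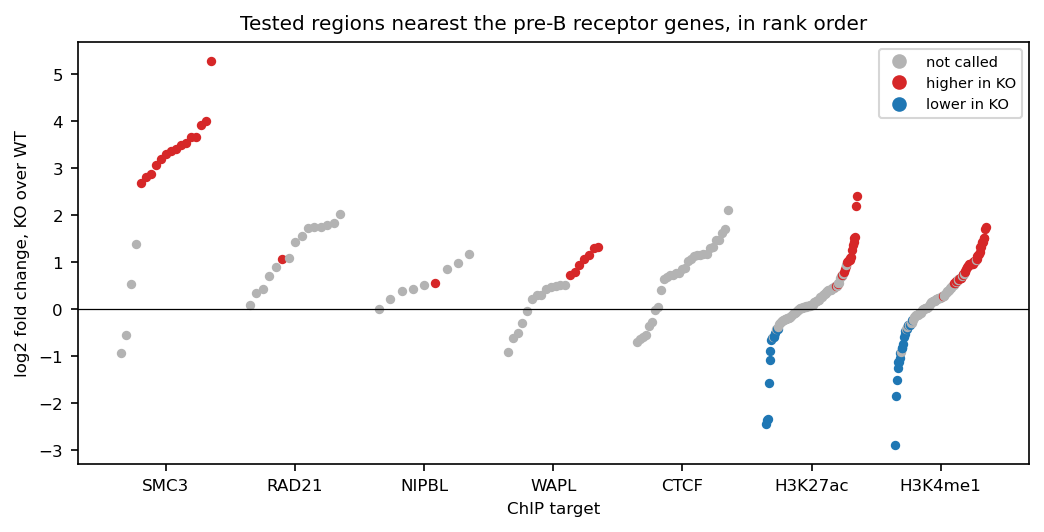
Log2 fold change (KO over WT) of each tested region near the 8 genes, in rank order within each ChIP target; red marks are called higher, blue marks called lower and grey marks not called. The called SMC3 regions lie at 2.68 to 5.28, no region is called lower for SMC3, RAD21, NIPBL, WAPL or CTCF, and both histone marks have calls in both directions.

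Other genes of pre-B receptor signalling were taken from a list of 50, among them the surrogate light chain, further Src family kinases, phosphatases, the phosphoinositide 3-kinase and calcium branches and the NF-kB relay. For SMC3, 95 of 172 tested regions near these genes were higher and 15 lower (55.2% and 8.72%, against 22.1% and 18.1% of all tested regions). Their median log2 fold change was 1.07. Over all tested SMC3 regions, 96.4% were higher at WT CTCF peaks and 8.12% elsewhere. The listed regions were not split this way, so all regions may not be a like background. Near Blk, a Src family kinase gene (chr14:64000664-64001023), SMC3 was at 18.4 and 17.0 CPM in KO and 1.24 and 0.750 CPM in WT (log2 4.14 ± 0.30). Near Inpp5d, which encodes the inhibitory lipid phosphatase SHIP1, 4 of 6 regions were higher and 0 lower. For H3K4me1, 120 of 695 were higher and 83 lower (17.3% and 11.9%, against 6.44% and 9.98%). At the promoter of Bcl10, of the NF-kB relay (chr3:145587246-145587936), H3K4me1 was at 0.972 and 1.34 CPM in KO and 7.53 and 8.84 CPM in WT (log2 −2.82 ± 0.19). It fell, as did H3K4me1 at the promoters of the 8 genes. Where the region with the smallest p of a listed gene lay at a promoter, most fell. Those of Ptpn6 (log2 0.99 ± 0.16), Vav1 (0.97 ± 0.24) and Mapk3 (0.59 ± 0.19) rose. These examples were chosen after their values were seen. H3K27ac was higher at 71 and lower at 71 of 695 regions (10.2% each, against 5.9% and 10.6% of all tested regions). WAPL was higher at 35 and lower at 38 of 228 (15.4% and 16.7%, against 13.1% and 27.6%). RAD21 was higher at 3 and lower at 16 of 161 (1.86% and 9.94%, against 2.3% and 21.1%), and its median log2 fold change was 0.68, where that of all tested regions was −0.39. NIPBL was higher at 4 and lower at 2 of 112 (3.57% and 1.79%, against 0.995% and 0.63%), and CTCF at 1 and 0 of 241 (0.415% and 0%, against 0.00792% and 0.0317%).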

How the data were processed

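Per the submitters' processing notes, reads were processed with BWA, Picard, MACS2, bedtools, featureCounts and edgeR on build mm9; versions and settings are not given in the sources used here. The authors deposited read counts per merged region of each target for KO and WT libraries, with 1 input column per genotype for the 5 proteins. The authors also deposited input-subtracted counts, used as a score per region in 1 alternative. The deposited normalized signal equals these times 1 constant per library, as checked from the values, and served only for its gene annotation. The deposited peak lists give a peak score of a kind not stated. The files hold 2 per-sample input columns not used here.

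The test of KO against WT was the quasi-likelihood F test of edgeR 4.0.16 (R 4.3.3; TMM scaling, filterByExpr, Benjamini-Hochberg over all regions of a target, adjusted p under 0.05, 2 KO against 2 WT libraries), tested on simulated data. CPM uses TMM library sizes; the standard error is the log2 fold change divided by the square root of F. Peaks were overlapped at 1 bp with bedtools 2.31.1; starts are 1-based. Python 3.11.15, pandas 2.3.3, numpy 2.4.6 and matplotlib 3.10.9 were used.

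Regions were named by rule: per target up to 2 higher and 2 lower calls without overlap, 1 per gene and direction, by fold change (with no call, the smallest p); the promoter region of each gene for both marks (nearest within 1000 bp); and the CTCF region with the highest CPM with its SMC3 region. Further regions given with values were chosen after their values were seen. The members, lists and rules were chosen with earlier results of these data known. Alternatives were library totals, scaling on the 25% of regions with the lowest CPM, DESeq2 1.42.0, no filter, input-subtracted counts, a replicate block, a 50 kb limit, each library left out, and for peaks an overlap of 50%, a score of at least 2 times the lowest and either replicate. The ± values are the standard errors of the fit, which rests on 2 libraries per group.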

Additional observations from a re-analysis of the deposited data

How the results depend on the processing

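The SMC3 call count (15) stayed at 10 to 18 under every alternative, always with more higher than lower, and DESeq2, library totals, background scaling, no filter, input-subtracted counts and the block kept the same 15. RAD21 (1) went to 0 under background scaling, no filter, input-subtracted counts, the replicate block and the 50 kb limit, and to 4 under DESeq2; with a library left out it was 0 to 12. NIPBL (1) was 0 under library totals, input-subtracted counts and the 50 kb limit, 4 under background scaling and 4 under the replicate block, and 0 with any library left out. WAPL (7) was 3 under DESeq2 and 0 to 12 with a library left out. CTCF (0) was 0 to 30 with a library left out. H3K27ac (32) was 27 under background scaling, 6 under DESeq2 and 22 on input-subtracted counts, all with more lower than higher, and 20 to 26 with a library left out. H3K4me1 (59) was 23 under DESeq2 and 45 to 48 with a library left out. ATPneg peaks in both replicates (RAD21, 7) were 3 under the stricter score and 13 in either replicate, and for NIPBL (1) 0 under the stricter score. The 50 kb limit only leaves out regions of the main fit. It took out the called RAD21 and NIPBL regions, which lie 71.9 and 72.0 kb past the Syk start. The cause of the other changes was not tested. Fits that leave out a library assume that the lone sample varies like the other group.

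Of the regions named by rule, none that was called changed sign. Uncalled CTCF values turned negative on input-subtracted counts near Blnk (−0.17), Plcg2 (−0.20) and Cd79b (−0.12), and near Cd79b it was −0.0443 without WT 2 and 2.03 without WT 1; H3K27ac turned at Btk under background scaling (−0.0327) and at Pik3ap1 under library totals (0.0241). DESeq2 gave no adjusted p for 5 weak H3K27ac regions named for Cd79a (2), Cd79b (1) and Plcg2 (2). Depth limits such weak regions: the H3K4me1 region of Plcg2 with the highest fold change rests on 2 and 10 WT reads. Scaling moved the median log2 fold change of all regions from −0.39 to 0.47 for RAD21, from 0.07 to 0.52 for WAPL, from −0.22 to 0.15 for SMC3, from −0.37 to −0.07 for CTCF and from 0.02 to −0.18 for H3K27ac (background scaling), and from 0.00 to −0.23 for NIPBL (library totals).

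The replicates share only a number: the labels do not tie same-numbered libraries, and the correlation of their deviations ran from −0.208 (CTCF) to 0.0345 (RAD21). With the replicate block, counts were 15 for SMC3, 0 for RAD21, 4 for NIPBL, 7 for WAPL, 0 for CTCF, 32 for H3K27ac and 59 for H3K4me1.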
